A study of Oryza sativa with 12 samples.

Results

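*OsHKT1.1* (LOC_Os04g51820) is the rice gene for a sodium transporter, and it was measured by 1 probe, CUST_13041_Rice4x44kGene, of the 42477 probes on the array. The probe was chosen by its name, with earlier results of these data known. Its locus was paired with it in the study's own table of differentially expressed genes (DEGs). Because that table lists probes chosen for a difference between the genotypes on these same arrays, the comparisons of OE with Tainung 67 below are not independent of how the probe got its name. Its response to NaCl within a genotype was not a criterion of that table. It uses the same arrays, however, so neither this response nor its difference between the genotypes is wholly independent of that choice.

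Shoots of *OsERF106MZ*-overexpressing rice (OE) and of the *japonica* cultivar Tainung 67 (TNG67 in the labels) were compared under NaCl-treated and normal conditions. The 4 groups were OE with 150 mM NaCl, OE with 0 mM NaCl, Tainung 67 with 150 mM NaCl and Tainung 67 with 0 mM NaCl, and each had 3 single-dye arrays. Seedlings were 7 days old at transfer and 8 days old at harvest, after 1 day of treatment, and RNA came from the aerial parts. The OE plants carry *OsERF106MZ*, an ERF-type transcription factor gene, under the constitutive cauliflower mosaic virus 35S promoter in the Tainung 67 background. The labels do not say which transgenic line was hybridized or whether its protein was fused to GFP, and neither the level of the transgene nor the tissue markers of shoot and root were analysed here. The series describes its repeats as biological, but the methods mention pooled labelled cRNA, so n counts arrays and the p-values measure the spread between arrays.

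HKT proteins move sodium, and in some members potassium, across the plasma membrane. The class I members, to which OsHKT1.1 belongs, carry sodium with little potassium, and in shoots and roots such transporters take sodium out of the xylem sap, which limits how much reaches the leaf blades. In rice, loss of OsHKT1.1 is known to raise sodium in the shoot under salinity stress. Since whole shoots were extracted, fewer cells of a type and less RNA per cell cannot be told apart.

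By the scanner's record, the arrays came from 3 slides. Replicates 1 and 3 of OE were on slide 2, those of Tainung 67 on slide 1, and replicate 2 of all 4 groups was on slide 3. NaCl-treated and control arrays of one genotype therefore shared slides, whereas the genotypes shared only slide 3. Median spot signals of the arrays ranged between 315.5 and 814.5 intensity units, and between 79.3% and 88.0% of its probes were well above background.

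The *OsHKT1.1* spot was dim but measured on every array. It was well above background on 12 of 12 arrays, and it was neither saturated nor an outlier on any. Before correction, its median signal was 191, 259.5 and 173 units in replicates 1, 2 and 3 of NaCl-treated OE, against 130.5, 116.5 and 111 units in OE without NaCl. In Tainung 67 it was 132, 234 and 104 units with NaCl, against 95, 113.5 and 95.5 units without. The local background of the spot lay between 41.0 and 51.0 units on all arrays, and the median of the negative-control spots lay between 57.0 and 75.5 units. The weakest spots, those of Tainung 67 without NaCl on slide 1, were thus only 24.0 and 22.5 units above the negative controls of their arrays, whereas the spot of NaCl-treated OE on slide 3 was 202.5 units above.

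**Figure D1:**
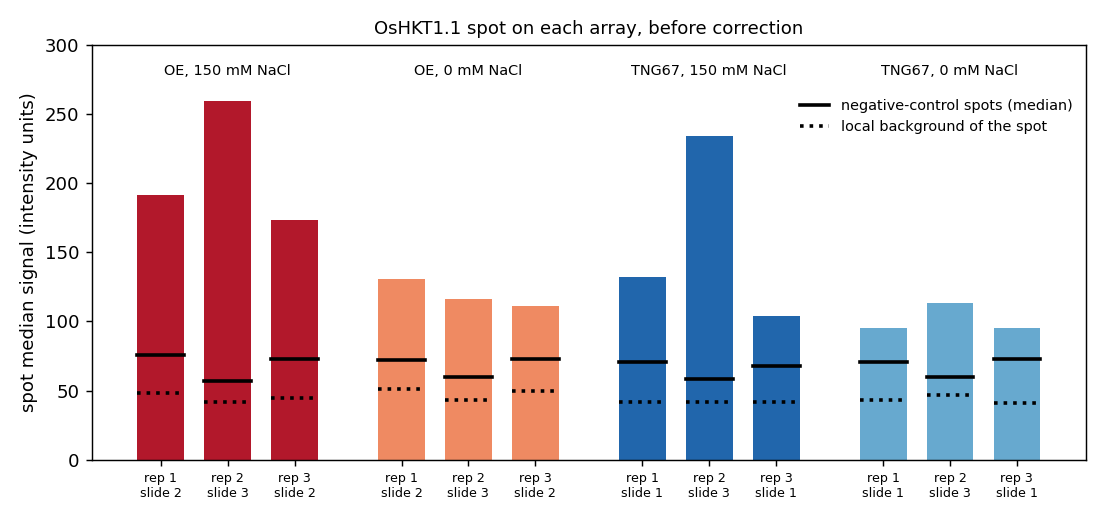
Median signal of the OsHKT1.1 spot (bars, intensity units) on each of 12 arrays, with the median of the array's negative-control spots (solid lines) and the local background of the spot (dotted lines). All 12 bars stand above both lines, and the highest are the NaCl-treated arrays of slide 3, at 259.5 units in OE and 234 units in Tainung 67.

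The scanner's own background-subtracted value, the processed signal, carries an error for each spot. It was 119 ± 12.3, 199 ± 20.0 and 101 ± 10.5 units in NaCl-treated OE, against 54.7 ± 6.26, 47.3 ± 5.23 and 36.4 ± 4.62 units in OE without NaCl (± scanner error, replicates 1 to 3). It was 56.0 ± 6.08, 172 ± 17.3 and 33.6 ± 4.81 units in NaCl-treated Tainung 67, against 19.3 ± 3.04, 47.9 ± 5.26 and 15.4 ± 3.08 units in Tainung 67 without NaCl. These values are not scaled between arrays, and slide 3 was brighter than the other slides, so only array pairs on 1 slide were set beside each other. The pairs were those of 1 replicate number within a genotype, and their arrays were not of equal brightness either. The median spot signal of the array was higher with NaCl in every OE pair and in replicate 1 of Tainung 67, and lower in replicates 2 and 3 of Tainung 67. In each of the 6 pairs, the NaCl-treated array had the higher *OsHKT1.1* value by more than the sum of both scanner errors. These errors cover the measurement of a spot only, and neither the brightness of the array nor the spread between samples. How many other probes did so was not counted.

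*OsHKT1.1* was higher in NaCl-treated shoots of both genotypes. After background correction and quantile normalization, the log2 signal was 7.21, 7.13 and 7.15 in NaCl-treated OE (7.16 ± 0.04, SD, n = 3), against 6.48, 5.79 and 6.14 in OE without NaCl (6.14 ± 0.34, n = 3). The 2 groups did not overlap, and the NaCl-treated arrays lay within 0.08 of each other. The level was 2.04-fold higher with NaCl, a log2 fold change of 1.03 ± 0.25 (SE, 95% interval 0.47 to 1.58), and it passed both criteria of a DEG, which were an adjusted p under 0.05 and more than a 2-fold change (adjusted p = 0.0126, limma with Benjamini-Hochberg adjustment). Of the 37144 probes tested, 6.18% passed as higher with NaCl in OE, and in 21.7% of probes with all values the NaCl-treated OE arrays were all above the untreated ones, so that such a response was common among the probes. The change exceeds the 2-fold limit narrowly. Without replicate 2 of untreated OE, the lowest array of its group, it was 0.85 with an adjusted p of 0.0455, which is below that limit.

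In Tainung 67, the log2 signal was 6.49, 6.90 and 5.84 with NaCl (6.41 ± 0.53, n = 3), against 5.66, 5.36 and 5.45 without (5.49 ± 0.15, n = 3). The groups did not overlap, but replicate 3 of the NaCl-treated arrays was only 0.18 above the highest untreated array. The level was 1.89-fold higher with NaCl, a log2 fold change of 0.92 ± 0.25 (SE, 95% interval 0.37 to 1.47, limma adjusted p = 0.0246). With all arrays, *OsHKT1.1* thus had an adjusted p under 0.05, as 11.5% of probes did in the higher direction, but did not pass the 2-fold limit, which 4.96% passed with it. NaCl-treated arrays lay wholly above untreated ones in 19.5% of probes in Tainung 67. This adjusted p rested on single arrays, as it was between 0.05003 and 0.0714, above 0.05, in 5 of the 6 fits without one of the Tainung 67 arrays, and 0.105 with replicates 1 and 3 averaged. In the other such fit, without replicate 3 of the NaCl-treated arrays, the response was 1.20 (adjusted p = 0.00678), and with the processed signals scaled to the 75th percentile of each array it was 1.50 (adjusted p = 0.0149), both past the limit.

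**Figure D2:**
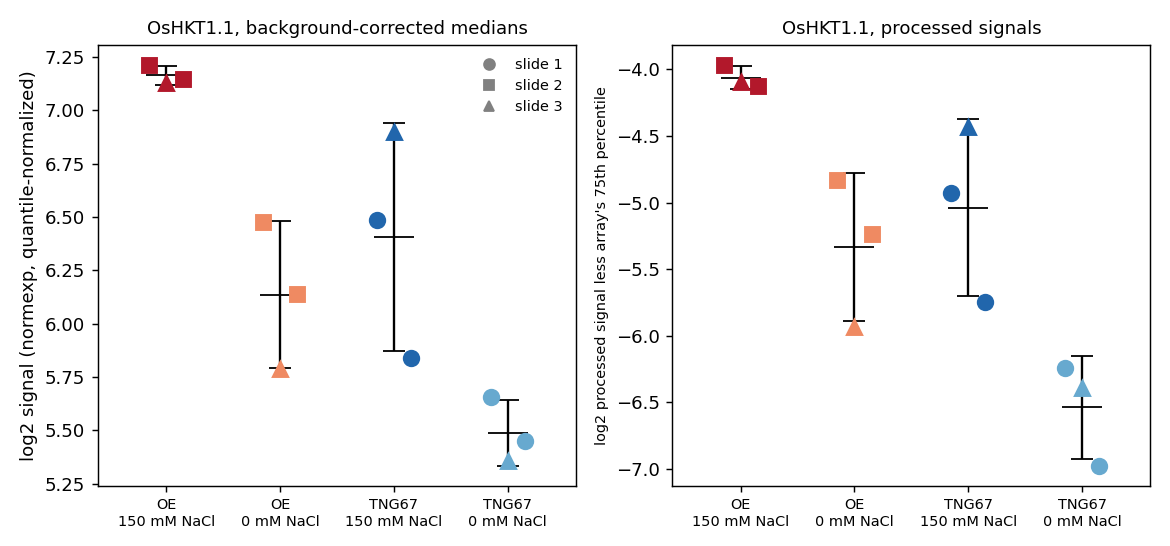
OsHKT1.1 on each array (points, shaped by slide) with the group mean and SD (lines, n = 3), after normexp and quantile normalization (left, log2 signal) and as the processed signal less the 75th percentile of its array (right, log2). NaCl-treated OE is highest at 7.16 and untreated Tainung 67 lowest at 5.49 on the left, and both scales have the same order of group means.

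The NaCl response was seen on every slide. Within slide 3, where each group had 1 array, *OsHKT1.1* was higher with NaCl by 1.34 log2 units in OE and by 1.54 in Tainung 67. Within the other slides it was higher by 0.87 in OE, on slide 2, and by 0.61 in Tainung 67, on slide 1. Single pairs of arrays with the same replicate number gave 0.74, 1.34 and 1.01 in OE and 0.83, 1.54 and 0.39 in Tainung 67 for replicates 1, 2 and 3, so that all 6 pairs had the same direction and the pair on slide 3 gave the highest value of each genotype. How many probes had all pairs in this direction was not counted. Within a genotype they are at least the 21.7% in OE and 19.5% in Tainung 67 whose NaCl-treated arrays lay wholly above the untreated ones.

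Over both genotypes, the mean NaCl response was 0.97 ± 0.18 log2 units (SE, limma adjusted p = 0.00154). An adjusted p under 0.05 in this direction was reached by 19.6% of probes, and 5.65% also passed the 2-fold limit, which *OsHKT1.1* just missed. When the NaCl labels were permuted within each genotype, the exact two-sided p was 0.005, and when they were permuted within each genotype and slide it was 0.0139, in both cases the smallest value that the 400 and 144 allocations can give. Adjusted over the 3 permutation tests made for this gene, these values were 0.0075 and 0.0139.

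The response to NaCl was not distinguishable between the genotypes. The NaCl response of OE minus that of Tainung 67 was 0.11 ± 0.35 log2 units (SE, limma adjusted p = 0.984), where 0.0942% of probes passed in either direction. The 95% interval of this difference, from -0.67 to 0.89, does not show that the responses were alike, as it takes in differences nearly as large as the response itself. The sign was not stable either. The difference was -0.20 within slide 3 and 0.26 over the other slides, and -0.23 with the processed signals.

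OE arrays were above Tainung 67 arrays under both conditions, but the comparison did not pass in either of them. The study's own table, made from these same arrays, lists this probe among its DEGs between the genotypes. The main fits here did not reach that call. The paper's own qPCR, on shoots treated for longer, showed no obvious difference in *OsHKT1.1* between the genotypes under either condition. With NaCl, the OE values from 7.13 to 7.21 lay above the Tainung 67 values from 5.84 to 6.90, a separation found in this direction in 11.1% of probes. The log2 fold change was 0.76 ± 0.25 (SE, 95% interval 0.20 to 1.31, limma adjusted p = 0.104), where 1.93% of probes passed as higher in OE, a share that moved with single arrays. Without replicate 2 of NaCl-treated Tainung 67, the highest array of its group, the log2 fold change was 1.00 with an adjusted p of 0.0190 and passed. That array was the only one of its group on slide 3, the slide that both genotypes shared. Without replicate 3, the lowest array of the same group, the log2 fold change was 0.47 with a limma adjusted p of 0.288. Without NaCl, the OE values from 5.79 to 6.48 lay above the Tainung 67 values from 5.36 to 5.66, as in 16.5% of probes. The log2 fold change there was 0.65 ± 0.25 (95% interval 0.09 to 1.20, limma adjusted p = 0.135), and 2.06% of probes passed as higher in OE.

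The difference between the genotypes moved with the slide. On slide 3, the only slide with both genotypes, OE was above Tainung 67 by 0.23 log2 units with NaCl and by 0.43 without. Between slides 2 and 1, which hold 1 genotype each, OE was above by 1.02 with NaCl and by 0.75 without. On those slides genotype and slide cannot be told apart. The mean difference over both conditions was 0.70 ± 0.18 (SE, limma adjusted p = 0.0202, a value under 0.05 reached in this direction by 8.99% of probes, and with the 2-fold limit by 2.41%). Without replicate 1 of untreated OE its adjusted p was 0.05001, just above 0.05. With replicates 1 and 3 averaged, the difference was 0.61 with an adjusted p of 0.226. With slide as a fixed term, the difference was 0.33 with an adjusted p of 0.606, and as a random block slide left a difference of 0.48 with an adjusted p of 0.260. The exact two-sided permutation p of the mean difference, with genotype permuted within each NaCl condition, was 0.005, the smallest that 400 allocations can give (0.0075 adjusted over the 3 tests), but this permutation does not keep the slides apart. The fits with slide could not change the values of the NaCl responses. In each genotype, NaCl-treated and control arrays were spread equally over the same slides. Only their errors could change, and the limma adjusted p was 0.00743 in OE and 0.0137 in Tainung 67 for slide as a fixed term.

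**Figure D3:**
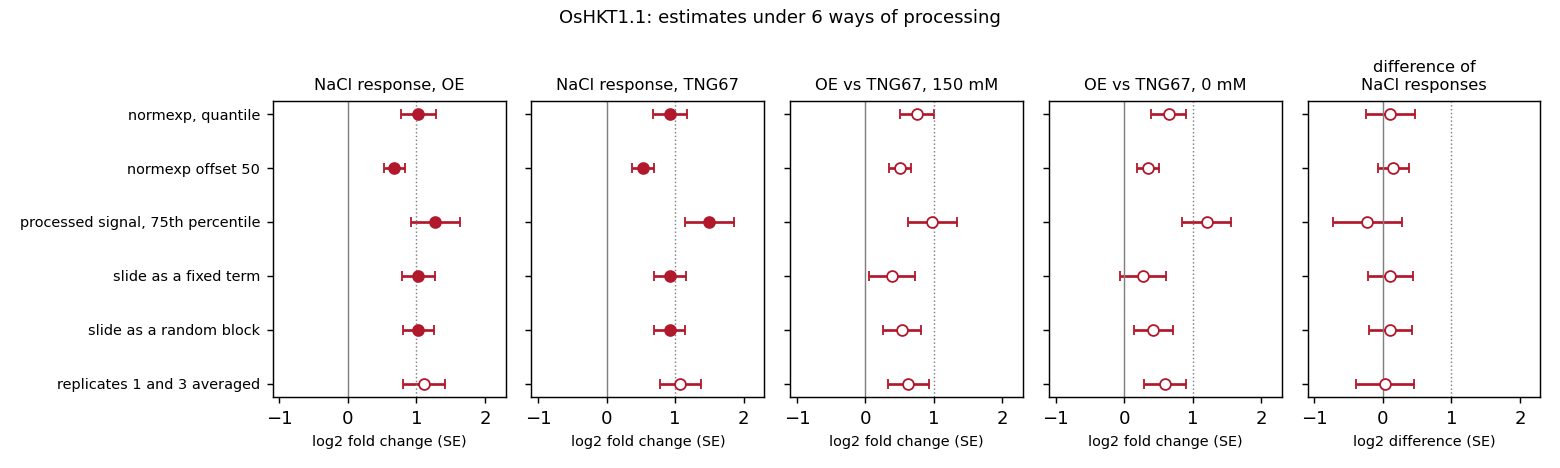
Log2 fold changes of OsHKT1.1 (points) with their SE (bars) in 4 comparisons and the difference of the NaCl responses, under 6 ways of processing. Filled points have an adjusted p under 0.05, the solid line marks 0 and the dotted line a 2-fold change. The NaCl responses stay between 0.53 and 1.50, and by the design the slide terms cannot move them. The OE effects shrink to 0.39 and 0.28 with slide as a fixed term.

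The order of the group means was NaCl-treated OE at 7.16, NaCl-treated Tainung 67 at 6.41, untreated OE at 6.14 and untreated Tainung 67 at 5.49. The middle groups overlapped, as NaCl-treated Tainung 67 spanned 5.84 to 6.90 and untreated OE spanned 5.79 to 6.48. The other neighbours in the order did not overlap but did not pass the criteria either. The spread between arrays differed among the groups, with an SD of 0.04 in NaCl-treated OE and of 0.53 in NaCl-treated Tainung 67.

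*OsHKT1.4* (LOC_Os04g51830), another class I sodium transporter gene, lies beside *OsHKT1.1* on chromosome 4 in the RefSeq annotation, with 2 non-coding genes and no protein-coding gene listed between them. It was the only other one of 22 listed HKT, NHX, SOS, AKT, KAT and HAK genes of sodium and potassium transport with a probe paired here, and both probes come from the study's table of DEGs. The comparisons of *OsHKT1.4*, between genotypes and with NaCl, are thus no more independent of that table than those of *OsHKT1.1*. The differences of *OsHKT1.4* from group to group ran opposite in sign to those of *OsHKT1.1*. Its log2 signal was 4.08, 4.61 and 4.44 in NaCl-treated OE (4.37 ± 0.27, SD, n = 3), against 5.40, 4.98 and 5.41 in OE without NaCl (5.26 ± 0.25). In Tainung 67 it was 5.21, 4.44 and 4.49 with NaCl (4.71 ± 0.43), against 6.61, 6.19 and 6.85 without (6.55 ± 0.33). Untreated Tainung 67 was thus the highest group, with no overlap with any other, where 19.7% of probes were separated in this direction by NaCl in Tainung 67 and 17.3% by OE without NaCl. It was also the only group with all 3 arrays well above background for this probe. The probe was so on 2 of 3 arrays in untreated OE and on 1 of 3 in each NaCl-treated group, and the values of the other arrays lie near the floor of the measurement.

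In Tainung 67, *OsHKT1.4* fell with NaCl, with a log2 fold change of -1.84 (SE 0.25, limma adjusted p = 0.000974), among the 3.97% of probes that passed as lower. The call was lost with a normexp offset of 50 (-0.92, under 2-fold) and by the methods' t-test (Benjamini-Hochberg adjusted p = 0.0574), and the value was -3.33 with the processed signals. In OE its NaCl response was -0.89 (limma adjusted p = 0.0237), where 3.64% of probes passed as lower. NaCl-treated OE was near the floor, and this value moved with the processing. It was -0.33 with a normexp offset of 50 (limma adjusted p = 0.0874), and with the processed signals -2.06 and past the 2-fold limit (adjusted p = 0.00472). The processed signals differ in background correction and in scaling, which were not tested apart. The adjusted p of the NaCl response in OE was between 0.0579 and 0.0952 without replicate 1 or 3 of either OE group. *OsHKT1.4* was lower in OE than in Tainung 67 without NaCl, with a log2 fold change of -1.28 (adjusted p = 0.0125), where 2.3% of probes passed as lower. This call was lost with slide as a fixed term (-0.997, adjusted p = 0.117), with an offset of 50 (-0.71, under 2-fold), with replicates 1 and 3 averaged (adjusted p = 0.169) and by the methods' t-test (adjusted p = 0.0786). It was also lost without replicate 1 or 3 of untreated Tainung 67 (adjusted p = 0.0538 and 0.0569). The value within slide 3 was -1.21. With NaCl the genotypes differed by -0.34 (adjusted p = 0.476), and within slide 3 by 0.16. The difference of the NaCl responses was 0.95 log2 units (adjusted p = 0.474), so that the genotypes were not shown to differ in this response either.

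**Figure D4:**
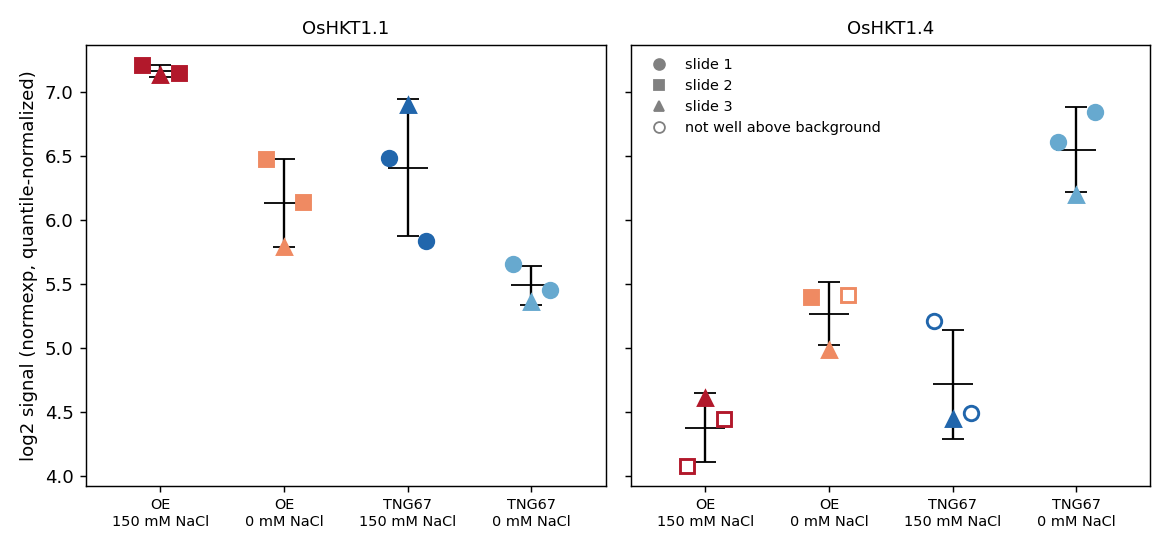
Log2 signal of OsHKT1.1 (left) and OsHKT1.4 (right) on each array, with the group mean and SD (n = 3). Open symbols mark arrays on which the probe was not well above background. OsHKT1.1 is lowest in untreated Tainung 67, at 5.49, the group in which OsHKT1.4 is highest, at 6.55. Levels of the 2 probes are not comparable with each other.

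The probes with values most like *OsHKT1.1* were found by the root mean square of the difference in log2 signal over the 12 arrays, each probe less its own mean. The median of this distance over all tested probes was 0.765. The 5 closest probes, CUST_32398_Rice4x44kGene at 0.198, CUST_25415_Rice4x44kGene at 0.217, CUST_35344_Rice4x44kGene at 0.226, CUST_3207_Rice4x44kGene at 0.231 and CUST_16918_Rice4x44kGene at 0.231, have no locus in the sources used here. All 5 were well above background on 12 of 12 arrays. Their NaCl response was between 0.93 and 1.14 log2 units in OE and between 0.80 and 1.06 in Tainung 67, and their OE effect was between 0.53 and 0.86 with NaCl and between 0.50 and 0.66 without. These ranges follow from how the probes were chosen and are given as a description.

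The closest probe, CUST_32398_Rice4x44kGene, had a log2 signal of 13.96, 13.82 and 13.91 in NaCl-treated OE, against 12.96, 12.76 and 13.00 in OE without NaCl. In Tainung 67 it had 13.16, 13.42 and 13.05 with NaCl, against 12.44, 12.32 and 12.42 without. As for *OsHKT1.1*, replicate 2 was the highest of the NaCl-treated Tainung 67 arrays and the lowest of the untreated arrays in both genotypes, and all 3 lay on slide 3.

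Among probes with a locus, the closest was CUST_24928_Rice4x44kGene of LOC_Os01g52340, at a distance of 0.248 and in place 15 among all probes. It was followed by those of LOC_Os03g21260 at 0.276, LOC_Os02g55320 at 0.277, LOC_Os02g03600 at 0.289 and LOC_Os04g50860 at 0.299. A locus was at hand for 1182 probes, all from the study's table of DEGs, so most probes could not be named. The probe of LOC_Os03g21260 was well above background on only 3 of 12 arrays. The 5 probes had NaCl responses between 0.95 and 1.20 log2 units in OE and between 0.67 and 1.00 in Tainung 67.

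**Figure D5:**
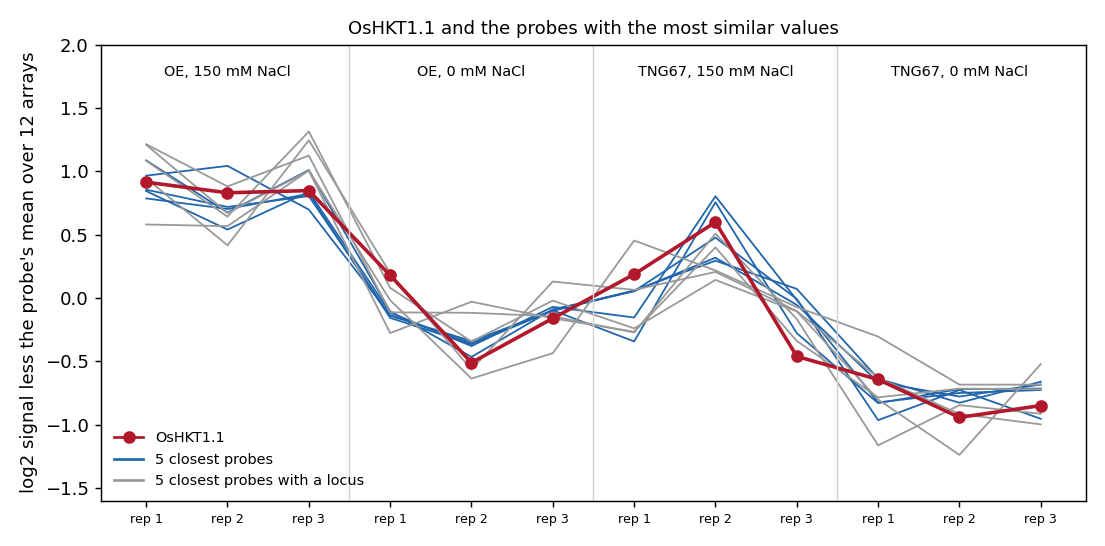
Log2 signal less the probe's mean over 12 arrays, for OsHKT1.1 (red points), the 5 closest probes (blue lines) and the 5 closest probes with a locus (grey lines), by group and replicate. The lines run close together by the way the probes were chosen. OsHKT1.1 departs most visibly in replicate 3 of NaCl-treated Tainung 67, where it lies below the other lines.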

How the data were processed

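Cy3-labelled cRNA of 12 shoot RNA samples was hybridized to Agilent rice 4x44K arrays, and groups and replicate numbers were taken from the titles, as the source names of untreated OE arrays all carry the same number. The authors deposited each array's Feature Extraction (10.7.1.1) output, with the median signal, local background and processed signal of each spot as an intensity, and normalized log2 values, which are processed signals from which an array constant and then the probe's median over the arrays were taken. After the study's methods, median signals were corrected with limma's normexp (offset 0), 1417 control spots and all outlier spots were dropped, arrays were quantile-normalized, and spots of a probe were averaged. Probes that 3 or more arrays showed well above background, 37144 in all, were fitted with limma 3.58.1 (R 4.3.3, lmFit and eBayes), with one mean per group and Benjamini-Hochberg adjustment within each comparison. A probe passed at an adjusted p under 0.05 and an absolute log2 fold change above 1. The permutation tests were exact and two-sided, on the mean of the differences within genotypes or conditions.

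Correlations of the deviations of same-numbered arrays were 0.286 to 0.68 between NaCl conditions in OE, 0.358 to 0.487 in Tainung 67, 0.171 to 0.336 between genotypes with NaCl and 0.356 to 0.582 without, all above 0.1, the level at which numbers are taken to pair arrays. The fits and permutations of the report are unpaired, so the SEs, intervals and adjusted p-values of the main fits leave this pairing out. The replicate block is the alternative that takes it up. Slide 3 holds replicate 2 of every group, so number and slide are not told apart. Alternatives were a normexp offset of 50, the processed signal less its 75th percentile, the deposited normalized values, other filters on dim probes, slide as a fixed term or random block, the replicate number as a block, replicates 1 and 3 averaged, the methods' t-test, single slides and leaving out each array. The named probes are the member, listed transport genes with a probe, and the 5 closest probes with and without the need of a locus. The member and lists were chosen with earlier results of these data known. Coordinates were used only to place *OsHKT1.1* among its neighbours on chromosome 4. They are not printed, because the annotation at hand (RefSeq ASM3414082v1) is of another build than the array.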

Additional observations from a re-analysis of the deposited data

How the results depend on the processing

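The direction of the NaCl and OE effects on *OsHKT1.1* held under every alternative run, and calls moved with the scaling of this dim probe. Many of these runs could not change the direction, however. The filters, the replicate block and the methods' t-test leave both estimates as they are. The slide terms leave the NaCl responses as they are. The deposited values are processed signals less constants, so they nearly repeat the run with the 75th percentile. The NaCl response in OE was 0.68 (adjusted p = 0.00997) with a normexp offset of 50 and 1.11 (adjusted p = 0.0960) with replicates 1 and 3 averaged, which gave 1.09 for the mean NaCl response. With the processed signal less the 75th percentile, the NaCl response in Tainung 67 was 1.50, the mean NaCl response 1.38, the mean OE effect 1.09 and the difference of the NaCl responses -0.23, and with the deposited normalized values they were 1.49, 1.38, 1.09 and -0.22. Within slide 3 alone, with no test, the NaCl response in Tainung 67 was 1.54, the mean NaCl response 1.44, the OE effect with NaCl 0.23, the mean OE effect 0.33 and the difference of the responses -0.20, and *OsHKT1.4* differed by 0.16 between genotypes with NaCl. By the methods' t-test with Benjamini-Hochberg adjustment over all probes, adjusted p was 0.0413 for NaCl in OE and 0.169 in Tainung 67.

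Leaving out each array gave 0.85 to 1.20 for the NaCl response in OE, 0.67 to 1.20 in Tainung 67, 0.85 to 1.12 for the mean, 0.47 to 1.00 for the OE effect with NaCl, 0.48 to 0.82 without, 0.56 to 0.82 for its mean and -0.18 to 0.35 for the difference of the responses, which was negative without replicate 3 of NaCl-treated Tainung 67 (-0.18) or replicate 2 of untreated OE (-0.06). The mean NaCl response passed 2-fold without replicate 1 of either untreated group (1.06 in OE, 1.02 in Tainung 67) or replicate 3 of NaCl-treated Tainung 67. The replicate block changed no call of *OsHKT1.1* (adjusted p = 0.0108 for NaCl in OE and 0.0201 in Tainung 67).

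Passing probes numbered 1018 with replicates 1 and 3 averaged for NaCl in OE (3649 otherwise), 954 in Tainung 67 (3318), 74 for OE with NaCl (1244), 177 without (1618), 569 for mean OE (1686) and 0 for the interaction (35). The t-test gave 954 for NaCl in Tainung 67, 11 for OE with NaCl and 338 without. Slide as a fixed term gave 946 for OE without NaCl, 858 for mean OE and 217 for the interaction, slide as a random block 988 and 291 for these last, the replicate block 64 for the interaction and an offset of 50 gave 1063 for mean OE. Leaving out each array gave 689 to 2605 for OE with NaCl (lowest without replicate 1 and highest without replicate 2 of NaCl-treated Tainung 67), 744 to 2081 for OE without NaCl (lowest without replicate 3 of untreated OE) and 3 to 114 for the interaction.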
